A study of Mus musculus with 3 samples.

Results

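Described here are 10 interferon gamma-inducible GTPase genes in type 1 conventional dendritic cells (cDC1s) taken from mouse tumours. They are 5 guanylate-binding proteins, *Gbp2*, *Gbp3*, *Gbp4*, *Gbp5* and *Gbp7*, and 5 immunity-related GTPases, *Iigp1*, *Irgm1*, *Irgm2*, *Igtp* and *Ifi47*. The members were chosen by name among the 32285 genes of the count matrices, and each was read by library and by the cell cluster that the study's authors deposited, with cluster 10 set against clusters 7 and 8. All tumours were MCA205 LA-OVA, a transplantable fibrosarcoma line that carries the OVA antigen. Mice of both sexes were wild type (WT), lacked secreted gelsolin (sGSN-/-), or lacked secreted gelsolin and the dendritic cell receptor DNGR-1 (sGSN-/-Clec9a-/-). Tumours of a genotype were pooled, and sorted cDC precursors, cDC1s and cDC2s were mixed into 1 single-cell library per genotype, so no genotype has a replicate library.

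Interferon gamma, made mainly by NK and T cells, signals through its receptor and the kinases Jak1 and Jak2 to genes with GAS elements. It induces *Irf1*, whose product binds ISRE elements, and both element types are known in promoters of these GTPases. The guanylate-binding proteins assemble on bacteria and on the vacuoles of parasites and help caspase-11, encoded by *Casp4*, to sense bacterial lipopolysaccharide. Among the immunity-related GTPases, Iigp1 and Ifi47 belong to the effector type, whereas Irgm1, Irgm2 and Igtp are regulators that sit on the cell's own membranes and hold the effectors in check. Type I interferon induces many of the same genes. In tumours, cDC1s take up antigen from dead cells and present it to CD8 T cells.

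The WT, sGSN-/- and sGSN-/-Clec9a-/- libraries held 12763, 8173 and 9273 barcodes. Their cDC1s, 2316, 1712 and 1778 cells, held 32676177, 23563047 and 21473550 unique molecular identifiers (UMIs), each counting 1 captured RNA molecule. Any pair of libraries shared 26 to 28 barcode sequences, 2 or 3 of them among cDC1s. The *Clec9a* label was visible in the counts, with 5502, 3970 and 2 UMIs in the cDC1s of the 3 libraries. Counts of *Gsn* do not separate the secreted transcript, so they do not check the other allele. Levels below are CPM, the UMIs of a gene as parts per 10⁶ of all UMIs of a library's cells in a cluster, listed in the order WT, sGSN-/-, sGSN-/-Clec9a-/-, with means ± SD over these 3 libraries. The spread therefore includes any effect of genotype. Cluster 7 held 422 cells and 6146416 UMIs, cluster 8 held 255 cells and 2817896 UMIs, and cluster 10 held 76 cells (21, 27 and 28) and 891318 UMIs. Resting cDC1s are the deposited clusters 0, 2, 3, 5 and 6 added together.

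The cell type label was checked with 7 cDC1 markers, including *Xcr1* and *Clec9a*. Their summed level was 3754 CPM in resting cDC1s. It was 3363, 2604 and 1350 CPM in clusters 7, 10 and 8, and each of the 7 was detected in every one of these groups. *Irf8* was the most abundant of them in clusters 10 and 8, with 987 and 1932 UMIs. The same 7 genes, again led by *Irf8*, summed to 1867 CPM in plasmacytoid dendritic cells and 843 CPM in a cluster of NK cells. The sum alone therefore does not separate cluster 8 from such cells. The 6 activated dendritic cell markers, led by *Ccr7*, summed to 6668, 5491 and 3641 CPM in cluster 8. In cluster 10 they summed to 521, 48.3 and 73.6 CPM, with *Ccl22* the most abundant and *Fscn1* and *Cacnb3* at 0. The 7 cDC2 markers summed to 142, 506 and 100 CPM in cluster 10, against a mean of 37.2 CPM in cluster 7 and 65.2 CPM in cluster 8. *Cd209a* was the most abundant of them, with 192 UMIs, and *Clec4a4* was at 0. The part of these markers in the values of cluster 10 was not tested.

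The GTPases were concentrated in clusters 10, 7 and 8, and these differed in the summed level of each family. Summed over the 10 members, cluster 10 reached 939, 1028 and 1084 CPM (1017 ± 73.3), cluster 7 reached 473 ± 42.1 CPM, and cluster 8 reached 264, 225 and 161 CPM (217 ± 52.2). The libraries of these clusters did not overlap. Cluster 4, 1 of the early cDC1 clusters, followed at 121 ± 13.3 CPM, and resting cDC1s lay at 45.3 ± 1.18 CPM. The guanylate-binding proteins alone summed to 350 ± 24.2 CPM in cluster 10 and 146 ± 47.9 CPM in cluster 8, but to 71.7 ± 6.73 CPM in cluster 7, beside 5.38 ± 0.359 CPM in resting cells. The immunity-related GTPases summed to 667 ± 66.5 CPM in cluster 10 and 401 ± 38.0 CPM in cluster 7, but to 70.6 ± 6.96 CPM in cluster 8, beside 40.0 ± 1.15 CPM in resting cells. Clusters 7 and 8 thus took opposite places in the sums of the 2 families, below cluster 10 in both.

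**Figure D1:**
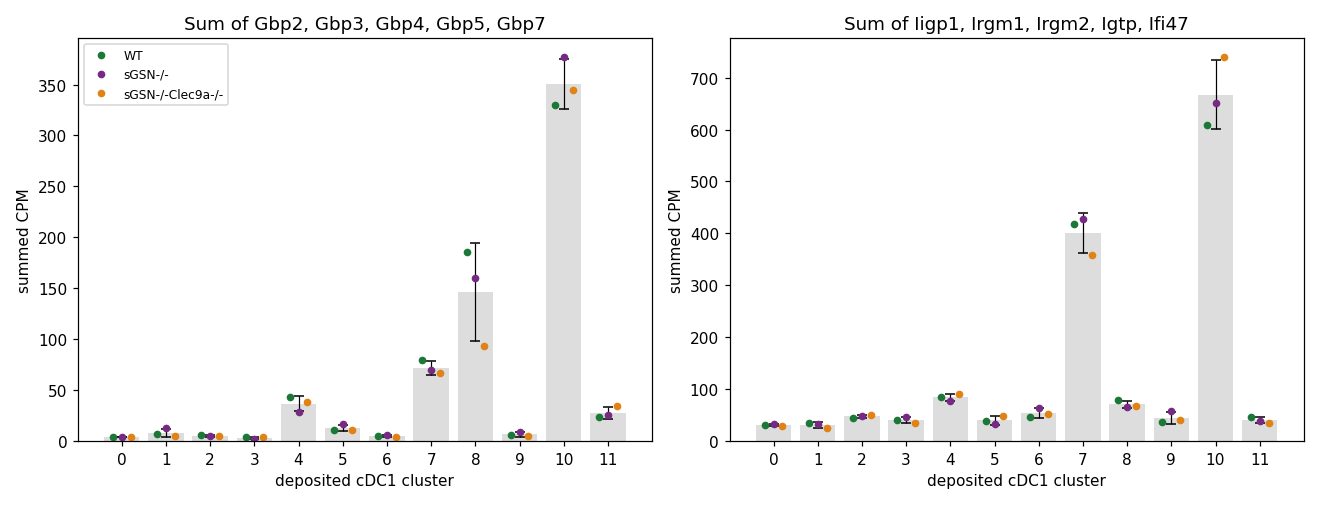
Summed CPM of the 5 guanylate-binding proteins (left) and of the 5 immunity-related GTPases (right) in the 12 deposited cDC1 clusters; bars are means, whiskers SD and points the 3 libraries. Cluster 8 stands above cluster 7 on the left (146 against 71.7 CPM) and below it on the right (70.6 against 401 CPM).

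Among the guanylate-binding proteins, *Gbp5*, known to promote inflammasome assembly, stood at 184, 119 and 184 CPM in cluster 10. It stood at 58.1, 45.7 and 33.0 CPM in cluster 8 and at 22.8, 34.1 and 26.8 CPM in cluster 7. Cluster 10 was above both others in all libraries, while clusters 8 and 7 overlapped. *Gbp2*, a GTPase recruited to vacuoles that hold pathogens, reached 56.7, 158 and 60.2 CPM in cluster 10, beside 67.8, 66.9 and 36.9 CPM in cluster 8. In cluster 7 it reached 25.9, 12.3 and 15.4 CPM. The sGSN-/- library was high in cluster 10, the other libraries lay within the values of cluster 8, and cluster 7 was below both. *Gbp4* was the member with its highest level in cluster 8, at 39.7, 32.3 and 15.5 CPM from 90 UMIs. In cluster 10 it had 0, 2 and 4 UMIs, or 0, 6.44 and 13.4 CPM, and the 0 of the WT library allows up to 10.6 CPM (3 counts). In cluster 7 it reached 3.51, 5.68 and 2.28 CPM, so that all libraries of cluster 8 lay above all those of clusters 10 and 7.

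*Gbp3* reached 39.0, 48.3 and 50.2 CPM in cluster 10, with means of 9.86 and 8.24 CPM in clusters 7 and 8. *Gbp7*, which is known to take part in oxidative killing of bacteria, reached 49.6, 45.1 and 36.8 CPM in cluster 10, with means of 12.3 and 6.12 CPM in clusters 7 and 8. For both genes cluster 10 stood apart, whereas clusters 7 and 8 overlapped for *Gbp3* and not for *Gbp7*. In resting cDC1s *Gbp4* had a mean of 0.485 CPM, the lowest of the 5 genes, and *Gbp7* had 1.47, 2.45 and 2.09 CPM.

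Among the effector GTPases, *Iigp1*, which is known to disrupt the vacuole of *Toxoplasma*, had 67.3, 135 and 137 CPM in cluster 10. It had 43.4, 23.7 and 13.1 CPM in cluster 7, beside 1.94, 0 and 3.88 CPM in cluster 8 from 4 UMIs. The 3 clusters did not overlap, and the 0 of the sGSN-/- library in cluster 8 allows up to 2.36 CPM. In cluster 7 it was detected in 10.9% of cells, and 1 cell held 28 of its 172 UMIs. *Ifi47* had 198, 216 and 224 CPM in cluster 10, 179, 192 and 172 CPM in cluster 7, beside 38.8, 31.5 and 31.0 CPM in cluster 8. Clusters 10 and 7 lay near each other without overlapping, and cluster 8 lay far below them.

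The regulators followed the effectors. *Irgm1* had 198, 180 and 248 CPM in cluster 10, 153, 161 and 127 CPM in cluster 7, beside 27.1, 18.9 and 25.2 CPM in cluster 8, where it overlapped the 23.5, 22.2 and 22.6 CPM of resting cells. *Igtp* had 131, 96.7 and 117 CPM in cluster 10, 33.3, 41.7 and 39.9 CPM in cluster 7, beside 5.81, 14.2 and 3.88 CPM in cluster 8. *Irgm2* was scarcer, with 15 UMIs in cluster 10 (14.2, 22.6 and 13.4 CPM), 49 UMIs in cluster 7 (9.65, 8.52 and 5.13 CPM) and 8 UMIs in cluster 8 (4.84, 0.787 and 3.88 CPM). For each of the 3 regulators the order was cluster 10, then 7, with no overlap between these clusters. *Igtp* and *Irgm2* are annotated as overlapping on the same strand, *Gbp4* overlaps *Gbp8* and *Gbp9*, and *Ifi47* overlaps *Olfr56*. How the counting separated such neighbours was not given in the sources used here.

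**Figure D2:**
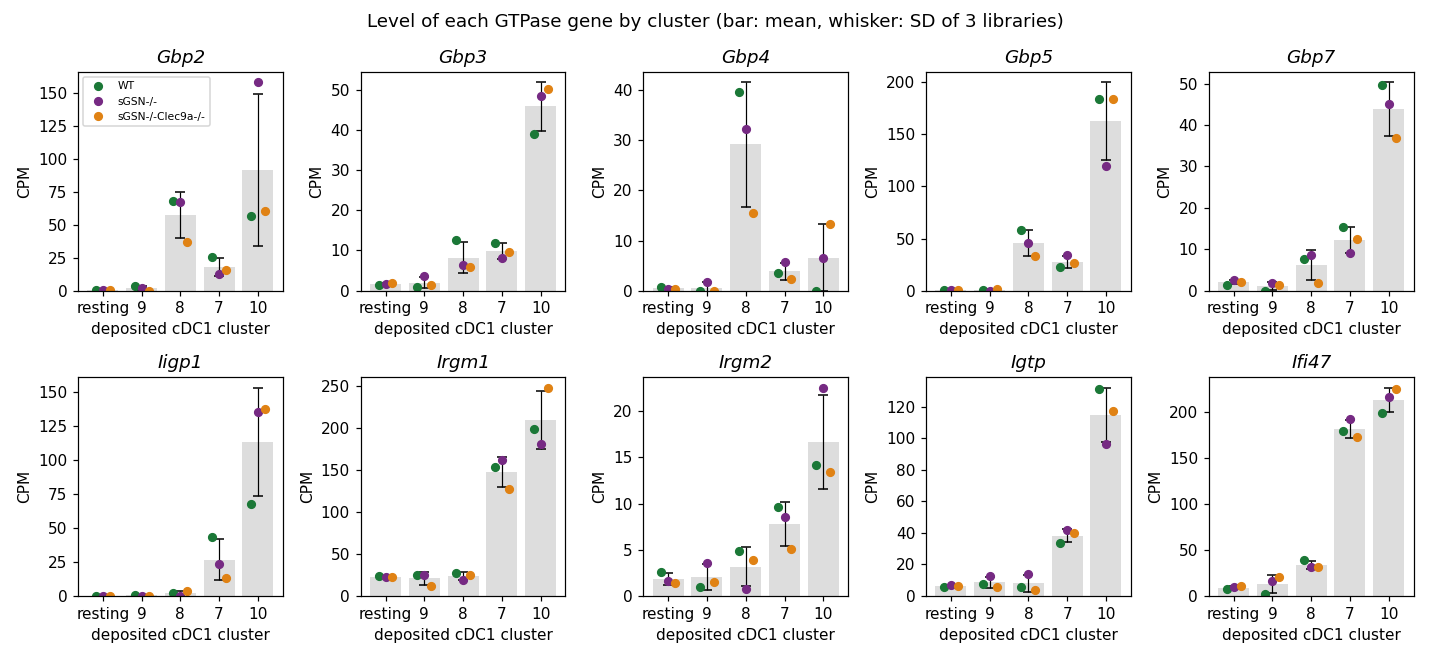
CPM of each member in resting cDC1s and in the deposited clusters 9, 8, 7 and 10; bars are means, whiskers SD and points the 3 libraries. All members but *Gbp4* have their highest mean in cluster 10, and *Iigp1* is near 0 in cluster 8.

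The comparison of cluster 10 with cluster 7 asks which of the GTPases separate the small cluster from the larger one, both of which carry interferon-induced genes. All 5 guanylate-binding proteins except *Gbp4* rose in cluster 10, with log2 fold changes of 2.48 for *Gbp5* (SE 0.22), 2.29 for *Gbp2* (SE 0.36), 2.15 for *Gbp3* (SE 0.32) and 1.76 for *Gbp7* (SE 0.32). Of the immunity-related GTPases, *Iigp1* rose by 2.0 (SE 0.35) and *Igtp* by 1.52 (SE 0.20). In edgeR's quasi-likelihood test, with p adjusted by the Benjamini-Hochberg method over all genes that passed its filter on low counts, adjusted p lay between 6.4e-07 (*Gbp5*) and 1.1e-03 (*Gbp7*) for these 6 genes. The threshold was 0.05, and the libraries of all 6 genes were separated. The share of all genes with separated libraries was not computed. Here and below, separation thus describes the members and does not set them apart from other genes. The values were 1.02 (SE 0.46, adjusted p = 0.18) for *Irgm2*, 0.44 (SE 0.16, adjusted p = 0.090) for *Irgm1* and 0.18 (SE 0.14, adjusted p = 0.51) for *Ifi47*, so no difference was called for them, although all 3 were higher in cluster 10 in each library. *Gbp4* did not pass the filter, and in a single fit over all groups of cDC1s it stood at 0.67 (SE 0.87, adjusted p = 0.73). Thus 6 of the 9 members tested were called higher and 0 lower, against 4.72% of all genes called higher and 5.69% called lower (10.4% in either direction). The median log2 fold change was 1.76 over these members and 0.00 over all genes.

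The authors had drawn these clusters from the very counts tested, so here and below p describes how alike the libraries are, not whether the clusters exist. Without the sGSN-/- library *Gbp2* stood at 1.39, and *Iigp1* stood at 1.74 with an adjusted p of 0.053, the highest of a range from 1.1e-14 over its alternatives. Without the WT library *Gbp2* stood at 2.95 and *Iigp1* at 2.82. After the cDC1s had been clustered again without the counts of 26 GTPase genes, the cluster matching cluster 10 shared 59 of its 76 cells and the one matching cluster 7 shared 386 of its 422. Between these, *Gbp5* (2.47), *Gbp2* (2.29), *Gbp3* (2.03) and *Iigp1* (1.99) were again higher, and *Irgm1* passed the threshold with 0.50 (adjusted p = 0.026, the lowest of a range up to 0.62). With every cell thinned to 3900 UMIs, 5 members passed the filter and 3 of them (*Gbp5*, *Iigp1* and *Igtp*) were called higher, whereas *Gbp2*, *Gbp3* and *Gbp7* were not tested.

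Cluster 8 held the highest levels of the activated dendritic cell markers, and its comparison with cluster 10 asks which GTPases separate these clusters. Of the immunity-related GTPases, *Iigp1* rose in cluster 10 by 5.97 on the log2 scale (SE 0.56), a value that rests on 4 UMIs in cluster 8, *Igtp* by 3.48 (SE 0.35), *Irgm1* by 2.99 (SE 0.25) and *Ifi47* by 2.48 (SE 0.21). The guanylate-binding proteins *Gbp7* and *Gbp3* rose by 2.45 (SE 0.39) and 2.25 (SE 0.37), and *Gbp5* by 1.62 (SE 0.25). In the same edgeR test the adjusted p of these 7 genes lay between 1.3e-06 and 3.6e-04, and their libraries did not overlap. *Gbp2* stood at 0.47 (SE 0.35, adjusted p = 0.32). Of 8 members tested, 7 were called higher and 0 lower, against 16.2% of all genes called higher and 18.8% called lower (35% in either direction). The filter left out *Gbp4*, the member with its highest level in cluster 8, so these counts do not describe the balance of directions. Without the filter on low counts, 8 of 10 members were called higher and 1 lower.

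*Gbp4* and *Irgm2* did not pass the filter in that comparison. In a single fit over all groups of cDC1s, which tested them, *Gbp4* fell by 2.41 on the log2 scale from cluster 8 to cluster 10 (SE 0.63, adjusted p = 0.0050), and *Irgm2* rose by 2.34 (SE 0.66, adjusted p = 0.0087). *Gbp4* was also called lower without the filter on low counts (-2.44) and without the sGSN-/-Clec9a-/- library, where it stood at -3.53. The sGSN-/- library weighed on 3 values: without it *Gbp2* turned to -0.08, *Iigp1* stood at 5.02 and *Igtp* at 4.35. *Iigp1* stood at 4.90 in thinned cells and at 4.74 in the clusters made without the GTPases. Scaling factors (TMM, which set the typical gene to no change) moved the median gene by 0.17 in this comparison, by 0.143 between clusters 7 and 8, and by -0.188 and -0.108 for clusters 8 and 7 against resting cells. No member's direction turned without them in these comparisons.

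Set against each other, cluster 7 had more of 4 immunity-related GTPases and cluster 8 more of 3 guanylate-binding proteins. The effectors *Iigp1* and *Ifi47* and the regulators *Irgm1* and *Igtp* rose in cluster 7 by 4.04 (SE 0.71), 2.27 (SE 0.15), 2.52 (SE 0.18) and 1.92 (SE 0.32) on the log2 scale. *Gbp4*, *Gbp2* and *Gbp5* fell by 3.12 (SE 0.36), 1.88 (SE 0.26) and 0.91 (SE 0.22). Adjusted p in edgeR lay between 2.0e-08 (*Ifi47*) and 3.6e-03 (*Gbp5*) for these 7 genes. The libraries were separated for the 4 genes higher in cluster 7 and for *Gbp4* and *Gbp2*, but not for *Gbp5*. *Gbp7* stood at 0.66 (SE 0.38, adjusted p = 0.18), not called although all libraries of cluster 7 lay above those of cluster 8, and *Gbp3* at 0.07 (SE 0.36, adjusted p = 0.89). With all libraries *Irgm2* did not pass the filter here, and in the fit over all groups it rose in cluster 7 by 1.37 (SE 0.55, adjusted p = 0.042). Without the sGSN-/-Clec9a-/- library it passed the filter and was called higher in edgeR (1.64, SE 0.59, adjusted p = 0.038). Of 9 members tested, 4 were called higher in cluster 7 and 3 lower, against 21% and 24% of all genes tested (45% in either direction).

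Without the WT library *Gbp5* stood at -0.57 with an adjusted p of 0.13, the highest of a range from 8.3e-04 over its alternatives. *Igtp* stood at 2.67 without the sGSN-/- library, and at 1.14 in thinned cells with an adjusted p of 0.094, the highest of a range from 6.8e-11. *Iigp1* lay between 3.30 without the sGSN-/- library and 5.03 without the sGSN-/-Clec9a-/- library, and at 2.80 in the clusters made without the GTPases. *Gbp3* turned to -0.05 without the sGSN-/- library and to -0.01 without the sGSN-/-Clec9a-/- library.

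**Figure D3:**
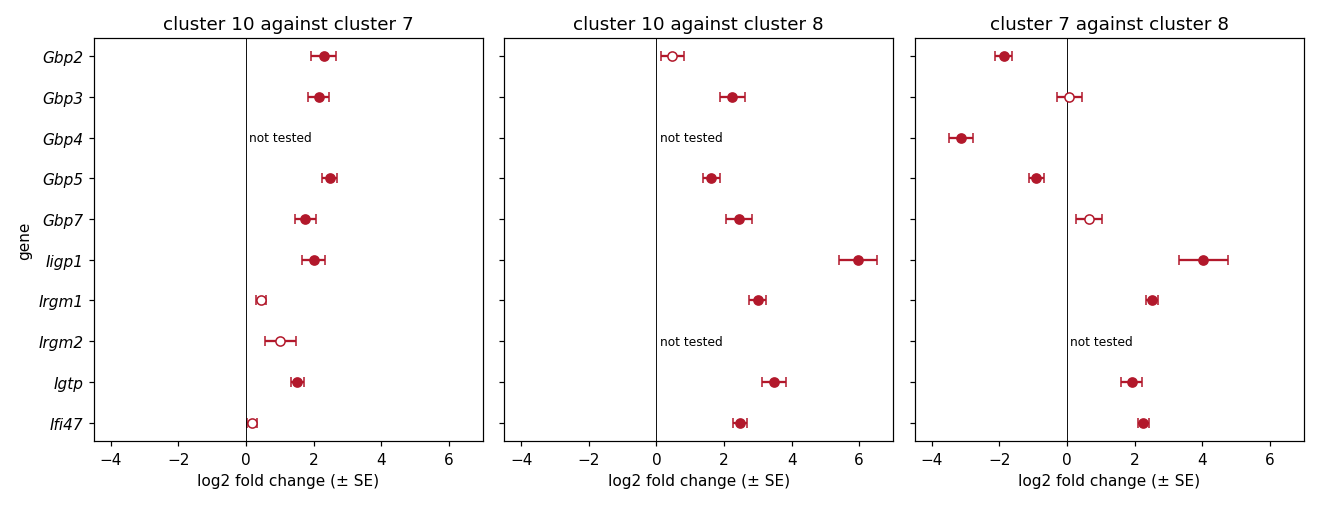
Log2 fold changes with SE of each member in the 3 comparisons between clusters 10, 7 and 8; filled points passed an adjusted p of 0.05 in edgeR, open points did not. *Gbp4*, *Gbp2* and *Gbp5* lie below 0 and *Iigp1*, *Irgm1*, *Igtp* and *Ifi47* above 0 in the comparison of cluster 7 with cluster 8.

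Against resting cDC1s, all 10 members rose in cluster 7, where 12.6% of all genes tested were called higher and 6.56% lower (19.2% in either direction). The log2 fold changes ran from 2.15 (*Irgm2*) to 7.74 (*Iigp1*), with 5.31 for *Gbp5* (5.94 without the WT library), 4.90 for *Gbp2* and 4.46 for *Ifi47*, and no library of cluster 7 overlapped a resting one. In cluster 10 all 9 members tested rose, against 6.31% of all genes called higher and 6.08% called lower (12.4% in either direction), from 3.06 (*Irgm2*) to 9.62 (*Iigp1*), with 7.68 for *Gbp5* and 7.09 for *Gbp2*. *Gbp2*, *Gbp4*, *Gbp5* and *Iigp1* reached at most 1.04 CPM in any resting library. Where tested, they could pass the filter on low counts only through cluster 7 or 10, so their direction was fixed in advance. The counts called in both comparisons thus do not describe the balance of directions. The values of *Iigp1* rest on 6 UMIs in resting cells, and their lowest alternatives were 6.97 in cluster 7 and 8.90 in cluster 10. Without the sGSN-/- library *Gbp2* stood at 6.42 and *Irgm2* at 2.63 with an adjusted p of 0.066, the highest of a range from 2.0e-10, and without the WT library *Iigp1* stood at 10.48. *Gbp4*, which was not tested there, rose by 3.62 (SE 1.05, adjusted p = 0.019) in the fit over all groups, with libraries that overlapped, and stood at 4.62 without the WT library.

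In cluster 8 fewer members were called. There 6 of 9 members tested rose against resting cDC1s, where 22.8% of all genes tested were called higher and 20.2% lower (43% in either direction). These were *Gbp2* (6.72, SE 0.28), *Gbp5* (6.16, SE 0.30), *Gbp4* (6.07, SE 0.36), *Gbp3* (2.63, SE 0.42), *Ifi47* (2.13, SE 0.24) and *Gbp7* (2.03, SE 0.47), with adjusted p in edgeR between 4.8e-11 and 2.8e-03. Of these genes *Gbp7* alone had libraries that overlapped those of resting cells (1.94 to 8.66 CPM, against 1.47 to 2.45 CPM). With at most 1.04 CPM in any resting library, *Gbp2*, *Gbp4* and *Gbp5* could pass the filter only through cluster 8. Their direction was thus fixed in advance, and the count called does not describe the balance of directions. The regulators were not called: *Igtp* stood at 0.76 (adjusted p = 0.12), *Irgm2* at 0.76 (adjusted p = 0.38) and *Irgm1* at 0.21 (adjusted p = 0.38). *Iigp1* was not tested, and in the fit over all groups it stood at 3.43 (SE 1.51, adjusted p = 0.061), whereas without the filter on low counts it was called (3.47, SE 1.27, adjusted p = 0.024). *Gbp7* lost its call without the WT library (1.72, adjusted p = 0.052) and without the sGSN-/- library (1.87, adjusted p = 0.061), the highest of a range from 7.2e-05. *Igtp* turned to -0.00147 without the sGSN-/- library.

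Cluster 9, with 162 cells, held the members at levels that overlapped those of resting cells for all 10 genes. How many of all genes overlap likewise was not computed. *Gbp2*, *Gbp4*, *Gbp5*, *Gbp7* and *Iigp1* had 0 UMIs in at least 1 library of this cluster. The sum of the 10 members was 51.1 ± 13.5 CPM, beside 45.3 ± 1.18 CPM in resting cells. Of 6 members tested by edgeR, 0 were called in either direction, against 4.04% of all genes called higher and 1.33% called lower (5.37% in either direction). At an unadjusted p under 0.05 the count was 0, and DESeq2 called 0 of 6. The log2 fold changes lay between -1.10 (*Gbp7*, which ranged from -1.54 without the sGSN-/-Clec9a-/- library to -0.47 without the WT library) and 0.47 (*Igtp*). *Gbp2*, *Gbp4*, *Gbp5* and *Iigp1* had 5, 1, 2 and 1 UMIs in this cluster and did not pass the filter. In the fit over all groups they stood at 1.74 (SE 1.27, adjusted p = 0.56), -0.20 (SE 1.68, adjusted p = 0.98), 0.25 (SE 1.36, adjusted p = 0.96) and 1.62 (SE 2.36, adjusted p = 0.81), so none was called, with wide SEs.

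Detection of the 2 families in single cells was counted as a description, and whether they met in a cell more than the detection of each would give was not tested. With each cell thinned to 3900 UMIs, which left 70, 411, 198 and 3394 cells in clusters 10, 7 and 8 and in resting cDC1s, 54.3% of cells in cluster 10 had a UMI of both families, against 13.9% in cluster 7, 9.09% in cluster 8 and 0.442% at rest. Cells with immunity-related GTPases alone made up 50.9% of cluster 7 and 32.9% of cluster 10, and 13.6% of cluster 8 beside 13.1% at rest. Cells with guanylate-binding proteins alone made up 22.7% of cluster 8, 4.14% of cluster 7, 4.29% of cluster 10 and 1.86% of resting cells. A UMI of no member was the state of 8.57% of cells in cluster 10, 31.1% in cluster 7, 54.5% in cluster 8 and 84.6% at rest.

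*Ifi47* was detected in 57.1% of thinned cells of cluster 10, 44.0% of cluster 7, 11.1% of cluster 8 and 3.15% at rest. For *Gbp5* the shares were 35.7%, 7.06%, 16.7% and 0.265%. For *Gbp4* they were 1.43%, 1.22%, 10.6% and 0.118%. *Gbp4* was thus detected in more cells of cluster 8 than of the other groups, and *Ifi47* in more cells of clusters 10 and 7. Without thinning, at median depths of 11132.5, 14253.5 and 10867 UMIs per cell in clusters 10, 7 and 8 and of 8530.5 to 14925 in the resting clusters, the shares of *Ifi47* were 78.9%, 70.9%, 16.5% and 9.03%. Those of *Gbp5* were 71.1%, 14.9%, 31.0% and 0.772%, and those of *Gbp4* were 6.58%, 4.27%, 16.1% and 0.657%.

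Between genotypes, with all cDC1s of a library added together and 1 library each, no test was possible. *Gbp5* stood at 6.15, 9.0 and 6.43 CPM in the WT, sGSN-/- and sGSN-/-Clec9a-/- libraries, with exact Poisson 95% intervals of 5.33 to 7.06, 7.83 to 10.3 and 5.40 to 7.59. The sGSN-/- library was the highest. The intervals cover counting error alone and treat UMIs as independent, although in cluster 7 the 10% of cells with most UMIs of *Gbp5* held 88.3% of them, so they do not test a difference between libraries. *Gbp2* stood at 7.28, 8.36 and 4.24 CPM, with intervals of 6.39 to 8.27, 7.23 to 9.61 and 3.41 to 5.20, and *Gbp4* at 2.30, 2.67 and 1.21 CPM, with intervals of 1.81 to 2.88, 2.05 to 3.42 and 0.791 to 1.77. For both, the sGSN-/-Clec9a-/- library was the lowest. The log2 ratio of sGSN-/- to WT had a median of 0.23 over the members, of which 8 were higher and 2 lower (0.04, with 6 higher and 4 lower, when clusters had the same weight, 0.10 in thinned cells and 0.37 without barcodes of high doublet score), beside a median of 0.01 over 2520 genes at 50 CPM or more. *Gbp5* alone passed a ratio of 0.5, with 0.55, where 0.794% of those genes did, but in thinned cells *Igtp* alone did, and without barcodes of high doublet score *Gbp2* did too. When clusters had the same weight, no member passed it. The ratio of sGSN-/-Clec9a-/- to sGSN-/- had a median of -0.17, with 1 member higher and 9 lower (-0.10, with 2 and 8, when clusters had the same weight, -0.34 in thinned cells and -0.18 without barcodes of high doublet score), beside -0.07 over 2466 genes, and *Gbp4* (-1.14) and *Gbp2* (-0.98) passed 0.5 (*Gbp2* alone when clusters had the same weight, and *Gbp5* too in thinned cells), where 1.38% of those genes did. No member reaches 50 CPM over all cDC1s, so their counting error is larger than that of the genes they are set beside.

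These ratios include how the cells divide among clusters. When each of the 12 clusters was given the same weight, the ratio of sGSN-/- to WT was -0.26 for *Gbp5*, opposite in sign to the value over all cells. The ratio of sGSN-/-Clec9a-/- to sGSN-/- was then -0.42 for *Gbp4*, -0.67 for *Gbp2* and 0.14 for *Gbp5*. Cluster 11 counted as much as the others there. In the sGSN-/-Clec9a-/- library it held 12 cells, and its 1 UMI of *Gbp2* stood for 34.2 CPM. How far this UMI moved the ratio was not tested. The order of libraries also differed between clusters. Within cluster 8 the levels of *Gbp2* and *Gbp4* were lowest in the sGSN-/-Clec9a-/- library, but in cluster 10 *Gbp2* was lowest in the WT library and *Gbp4* highest in the sGSN-/-Clec9a-/- library, and in cluster 7 *Gbp2* was lowest in the sGSN-/- library. In cluster 8 the sGSN-/-Clec9a-/- library was also that in which the markers of activated dendritic cells were lowest (3641 CPM). The part of those markers in the difference was not tested.

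Among genes of the interferon gamma axis, *Irf1* and *Socs1* were higher in cluster 10 than in both others. *Irf1*, a transcription factor gene induced by interferon gamma, had 751, 606 and 643 CPM in cluster 10, 274, 234 and 175 CPM in cluster 8 but 85.5, 85.7 and 82.1 CPM in cluster 7, beside a mean of 37.1 CPM at rest. The 3 clusters did not overlap. It rose in cluster 10 by 2.92 (SE 0.13) on the log2 scale against cluster 7 and by 1.37 (SE 0.18) against cluster 8. *Socs1*, the feedback inhibitor of Jak kinases, had 230, 103 and 201 CPM in cluster 10, above all libraries of cluster 8 (mean 42.0 CPM) and of cluster 7 (mean 37.8 CPM). *Ifng* itself had 2, 1 and 6 UMIs in clusters 10, 7 and 8.

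Of 12 axis genes, 11 were tested between clusters 10 and 7, and 4 were called higher and 0 lower (edgeR). With 1 library left out, 3 to 5 were higher, and 1 was lower without the WT library. The 4 genes higher in all libraries together were *Irf1*, *Socs1* (2.16, SE 0.24), *Jak2* (0.88, SE 0.16) and *Batf2* (2.18, SE 0.47), the last of which was not called without the WT library (2.22) or without the sGSN-/- library (2.11). Of 12 other interferon gamma targets, 10 were tested, and 4 were higher and 1 lower. They included the chemokine gene *Cxcl9* (3.10, SE 0.13), *Serpina3g* (3.36, SE 0.28) and *Cd274*, which encodes PD-L1 (3.16, SE 0.19). Of 14 type I interferon-stimulated genes, 12 were tested, and 0 were higher and 10 lower, *Ifit2* with -3.18 (SE 0.27; -3.80 without the WT library) and *Isg15* with -2.14 (SE 0.13) among them. From these same cells, the study's paper lists *Cxcl9*, *Cxcl10* and *Serpina3g* as markers of cluster 10, and *Ifit2*, *Isg15* and *Isg20* as markers of cluster 7. Here and below, counts of these lists thus partly restate how the clusters were described and are not independent of it. Of 17 other GTPases of both families, 5 were tested, and 1 was higher and 1 lower. The higher one was *Tgtp1* (1.28, SE 0.31), not called without the WT library (1.21) or the sGSN-/-Clec9a-/- library (1.05). Of 12 partners in membrane attack and autophagy, 11 were tested, and 1 was higher and 1 lower. The higher one was *Casp4* (0.91, SE 0.23), not called without the sGSN-/- library (0.73) or the sGSN-/-Clec9a-/- library (0.63). Over all genes tested 4.72% were called higher and 5.69% lower.

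Between clusters 10 and 8, where 16.2% of all genes were called higher and 18.8% lower, the axis counted 4 genes higher and 2 lower of 10 tested. Its median log2 fold change was 0.02. *Socs1* (1.92, SE 0.28) and *Ciita*, the master factor of MHC class II genes (1.82, SE 0.22), were higher, and *Nlrc5*, its counterpart for MHC class I, was lower (-1.58, SE 0.26). Over the alternatives *Ciita* stood at 1.12 at the lowest and *Nlrc5* at -1.06 at the highest, and both were called in each. With any 1 library left out, 1 gene was lower. Of 10 other targets 4 were higher and 0 lower, with *Cxcl9* at 3.06 (SE 0.19) and *Serpina3g* at 3.63 (SE 0.36). Of 8 type I genes 0 were higher and 3 lower (*Isg15* -1.05, SE 0.22), and these 3 became 2 without the WT library and 1 without the sGSN-/- library. Of 3 other GTPases 3 were higher, *Tgtp1* by 2.06 (SE 0.37) among them. Without the sGSN-/-Clec9a-/- library 1 of the other targets and 1 of the other GTPases were lower. Of 10 partners 2 were higher, near the share over all genes, among them *Casp1* (1.57, SE 0.31), and 1 was without the WT or the sGSN-/- library.

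Between clusters 7 and 8, where 21% of all genes were called higher and 24% lower, the type I list stood on the side of cluster 7, with 11 of 12 genes higher and 0 lower, *Ifit2* by 2.57 (SE 0.28) and *Isg15* by 1.04 (SE 0.18). The axis divided, with 3 of 10 genes higher in cluster 7 and 5 lower. *Ciita* (1.38, SE 0.17) was among the first, and *Irf1* (-1.60, SE 0.14), *Jak2* (-1.47, SE 0.13) and *Nlrc5* (-1.49, SE 0.17) among the others. Axis genes higher were 2 without the WT or the sGSN-/- library. Of 10 other targets 2 were higher and 1, *Cd274*, lower (-3.62, SE 0.19), with 1 higher without the sGSN-/- library, shares not above those over all genes. Of 7 other GTPases 4 were higher, with *Tgtp2* at 2.90 (SE 0.35, and 1.99 at the lowest of its alternatives). In the same list 2 were lower, with *Gbp8* at -2.44 (SE 0.33), a count that was 1 with any 1 library left out. Of 12 partners 4 were higher, with *Rnf213*, a large ubiquitin ligase, at 1.71 (SE 0.13), and 1 lower, which was 0 without the WT or the sGSN-/- library. *Tgtp1* and *Tgtp2* are near-identical genes, and *Gbp8* lies in the stretch that overlaps *Gbp4*, so the division of reads among them is uncertain.

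Across the 12 clusters, on the log2 of mean CPM with 1 added, members of a pair followed each other to different degrees. Pearson's r was 0.968 for *Gbp3* and *Gbp7*, 0.965 for *Iigp1* and *Igtp*, and 0.961 for *Gbp2* and *Gbp5*, and lowest for *Gbp4* with *Irgm1* (0.446). The clusters come from the same libraries and are not independent, so these are descriptions. Among the genes most like the sum of the members, of 4158 genes that reached 50 CPM in a cluster, were *Samhd1* (r = 0.951), *Fam241a* (0.951), *Apobec3* (0.932), *Socs1* (0.909), *Parp14* (0.907), *Serpina3g* (0.904), *Oasl1* (0.901), *Ifi204* (0.900) and *Ifit1* (0.894). By Spearman's correlation 4 of the top 10 genes were again among the top 10.

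In the genome (GRCm38, GENCODE annotation) some members of a family lie side by side and others lie apart. *Gbp5* (chr3:142493978-142522344), *Gbp7* (chr3:142530342-142550149), *Gbp3* (chr3:142560026-142573209) and *Gbp2* (chr3:142620602-142638008) follow each other on the plus strand. *Gbp4*, which differed from them in having its highest level in cluster 8, lies apart (chr5:105115767-105139586, minus strand). *Irgm1* (chr11:48861968-48871683, minus strand) and *Ifi47* (chr11:49076587-49096974, plus strand) share a chromosome with the overlapping pair *Igtp* (chr11:58199556-58207591) and *Irgm2* (chr11:58199618-58222782), both on the plus strand. *Iigp1* lies on another chromosome (chr18:60376027-60392634, plus strand).

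RefSeq promoter windows (GRCm38.p6), from 250 bases before to 50 bases after a start, were available for 8 members, with 9 windows since *Gbp3* has a pair. *Gbp4* and *Iigp1* had no window in the set used here. They were searched on both strands for the GAS letters TTCNNNGAA, the ISRE letters GAAA and GAAA with 2 bases between, and the kB letters GGGA and CC with 4 bases between. The ISRE letters were found in windows of 7 members, all of the 8 but *Ifi47*, where 3.44% of 32851 windows of all genes hold them. The GAS letters were found for 4 members, *Gbp5*, *Gbp7*, *Igtp* and *Irgm2*, where 8.3% of all windows hold them. The kB letters were found for *Gbp5* and *Gbp2*, where 20.7% of all windows hold them. Both GAS and ISRE letters occur in 0.454% of all windows. A match describes letters and is not evidence of a bound site.

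The stretches of 120 bases that end at the RefSeq start of *Gbp7*, *Igtp* and *Irgm2* are shown because they hold both kinds of letters close to the start. A rise against resting cells was not particular to these genes. All 10 members rose in cluster 7 and all 9 tested in cluster 10, among them *Ifi47*, whose window holds no letters. Whether letters and levels go together was not tested. The stretches lie at chr3:142530216-142530335, chr11:58199436-58199555 and chr11:58214857-58214976, on the plus strand, and no base of them is in an annotated exon. The RefSeq start of *Irgm2* lies inside the longer GENCODE gene given above, not at its first base. Capitals mark GAS and ISRE letters on either strand.
Gbp7: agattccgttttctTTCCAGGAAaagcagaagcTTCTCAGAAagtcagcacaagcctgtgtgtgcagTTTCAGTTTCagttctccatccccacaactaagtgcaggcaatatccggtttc
Igtp: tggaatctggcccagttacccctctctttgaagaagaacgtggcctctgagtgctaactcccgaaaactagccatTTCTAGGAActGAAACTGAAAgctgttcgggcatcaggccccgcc
Irgm2: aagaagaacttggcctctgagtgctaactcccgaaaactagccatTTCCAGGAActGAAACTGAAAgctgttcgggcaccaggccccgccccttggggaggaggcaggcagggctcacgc

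Counting the start as 0, the GAS letters begin at -106 and -87 in *Gbp7*, at -45 in *Igtp* and at -75 in *Irgm2*, and the ISRE letters at -53, -34 and -64. Aligned on these ISRE letters, *Igtp* and *Irgm2* were identical at 118 of 130 bases. In the other windows the letters included TTCTCAGAA at -52 in *Gbp5*, TTTCACTTTC at -59 in *Gbp2*, and in *Irgm1* the overlapping GAAATAGAAA at -30 and GAAACCGAAA at -24. The kB letters GGAAATTCCC, read on the opposite strand, began at -77 in *Gbp5*.

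**Figure D4:**
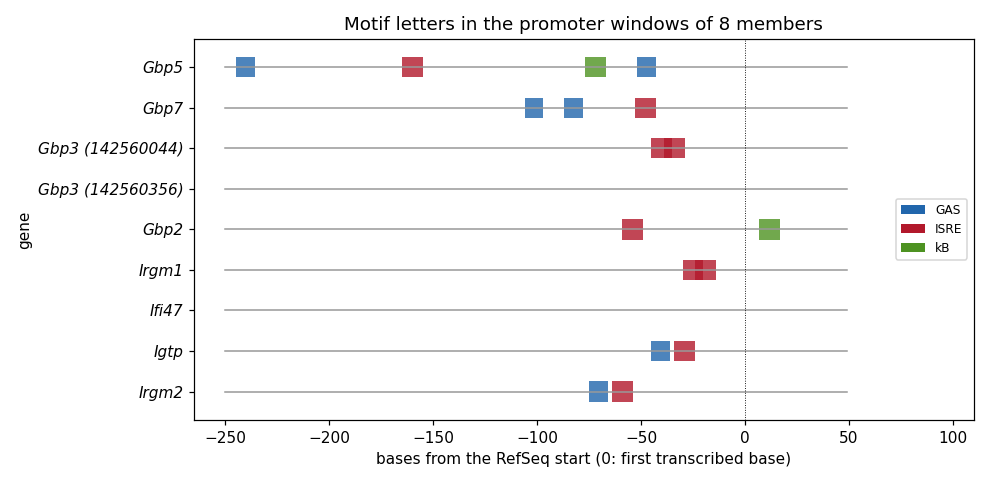
Places of the GAS, ISRE and kB letters in the 9 RefSeq windows of 8 members, in bases from the start. GAS and ISRE letters lie side by side in *Igtp* and *Irgm2*, and *Ifi47* and the more distant *Gbp3* window hold none.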

How the data were processed

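Raw UMI counts were measured in 3 droplet single-cell libraries. The count matrices the authors deposited came from Cell Ranger 6.0.1 per the matrix header, on mm10 (GRCm38), and the clusters from Seurat 4.0.0 per the labels. The methods of the study's paper name an earlier Seurat version, run in R 4.0.0. Counts were summed per library and cluster, scaled to CPM, and compared with edgeR 4.0.16 in R 4.3.3 (filterByExpr, TMM factors, quasi-likelihood test, Benjamini-Hochberg over all genes tested, threshold 0.05), with libraries as replicates. Alternatives were a block for library, no scaling factors, no filter on low counts, DESeq2 1.42.0, leaving out each library, thinning to 3900 UMIs per cell, leaving out the 6% of barcodes with the highest doublet score, 1 fit over 6 groups, and clusters made without GTPase genes. Sums of a library share a pool of mice, so libraries pair by design. After removing group means, sums of 1 library correlated across genes with r between -0.0229 and 0.166. The test was checked on simulated data. Other cells were grouped in Python 3.11.15 (scanpy 1.11.5, leidenalg 0.10.2; 2000 variable genes, 50 components, 20 neighbours, resolution 1). Every member is named, and other genes come from lists by role. Members and lists were chosen with earlier results of these data known. 1 gene of the lists is not reported here.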

Additional observations from a re-analysis of the deposited data

How the results depend on the processing

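Across the 7 comparisons, 606 alternative values of the members' log2 fold changes were computed, and 590 kept their direction and side of the threshold, 6 lost their call, 1 gained one and 9 reversed. With 1 library left out, values in cluster 9 against rest ranged from -0.38 (without the sGSN-/- library) to 0.54 for *Gbp3*, from -0.31 to 0.16 (without the sGSN-/-Clec9a-/- library) for *Irgm1*, which stood at 0.40 in thinned cells, from -0.81 to 0.71 (without the WT library) for *Irgm2*, and from -0.20 (without the sGSN-/-Clec9a-/- library) to 0.89 for *Ifi47*. *Gbp2* between clusters 10 and 8 ranged from -0.0788 (without the sGSN-/- library) to 0.84. *Gbp3* between clusters 7 and 8 ranged from -0.0496 (without the sGSN-/- library) to 0.37, with -0.01 without the sGSN-/-Clec9a-/- library. *Igtp* in cluster 8 against rest ranged from -0.00147 (without the sGSN-/- library) to 0.93. None of these was called. For 325 alternative values of other named genes, 319 kept their call and 6 lost it.

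In thinned cells, 3 members rather than 6 were called higher in cluster 10 than in cluster 7, where 5 passed the filter and *Gbp2*, *Gbp3* and *Gbp7* were not tested. Between clusters 7 and 8, 2 rather than 4 were called higher, with *Iigp1* not tested and *Igtp* no longer called. Members called lower in cluster 10 than in cluster 8 numbered 1 rather than 0 without the filter on low counts and in the fit over all groups, and 0 to 1 with a library left out. Genes called in thinned cells were 318, 746 and 1867 in the 10 against 7, 10 against 8 and 7 against 8 comparisons, and 991, 2849, 215 and 653 for clusters 7, 8, 9 and 10 against rest. With 1 library left out they ranged from 345 to 481, 939 to 1697 and 2167 to 3412 in the first 3, and from 1227 to 1361, 2925 to 4567, 305 to 367 and 610 to 773 against rest. The fit over all groups called 2408 between clusters 10 and 8. With library as a block (replicate block), 644, 1439 and 3322 genes were called in the first 3 and 2477, 4154, 682 and 948 against rest, beside 675, 1479, 3357, 1967, 4478, 549 and 1247 without it, and the members called were the same in number. Fewer UMIs and fewer libraries are part of these settings, and the cause was not tested further. Over all clusters that met the marker rule for cDC1s, the summed level outside the deposited cells was 396 CPM at Leiden resolution 1 and 290 CPM at 0.5, the cause of which was not tested. At resolution 1 these include the 458 barcodes led by *Cxcl9*, which are given no cell type name here, with 1087 CPM, beside 45.6 and 46.6 CPM in the others (294 and 495 barcodes). At 0.5 they include 422 barcodes led by *Cxcl9*, with 1189 CPM, beside 42.3 CPM in the other cluster, of 1193 barcodes. The summed level in cluster 4 was 121 CPM, and 105 CPM without barcodes of high doublet score, an alternative chosen after the data had been seen. In its WT library the guanylate-binding proteins summed to 42.7 CPM, and to 13.5 CPM without those barcodes. Of 60 alternative genotype ratios of members, 46 lay within the 95% counting error of the value over all cells and 14 moved past it. Signs turned among them, as for *Gbp7* in sGSN-/- over WT (0.24, but -0.38 with clusters of the same weight and in thinned cells) and *Gbp2* (0.20, but -0.15 in thinned cells). The value of *Gbp7* with clusters of the same weight includes 1 UMI in cluster 11 of the WT library, which stood for 23.0 CPM.

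The clusters were called by the authors on counts that include the members. Each genotype is 1 library, so genotype and library cannot be told apart. Cluster 10 holds 76 cells, and *Gbp4*, *Irgm2* and *Iigp1* rest on few UMIs in some clusters. A p that misses the threshold does not show that values did not differ. In the comparisons with a library left out, 2 libraries per cluster remain.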

Other observations

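Outside the deposited cDC1s, the highest summed level of the 10 members was in a cluster of 458 barcodes led by *Cxcl9*, *Ifit3* and *Rsad2*, at 1100, 1164 and 997 CPM (1087 ± 84.4). Its guanylate-binding proteins summed to 491 ± 48.0 CPM and its immunity-related GTPases to 596 ± 41.2 CPM. *Ifi47* reached 297, 277 and 255 CPM there, *Gbp2* 159, 162 and 160 CPM, and *Gbp4* 22.3, 31.5 and 36.3 CPM. Its barcodes carried markers of cDC1s (610 CPM), cDC2s (1207 CPM) and monocytes (3401 CPM), so no cell type name is given to it.

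Barcodes led by *Cd3d* (364), named T cells here, held 415 ± 88.3 CPM, with *Gbp7* at 99.1, 110 and 94.0 CPM. They also carried markers of NK cells (2055 CPM), monocytes (1657 CPM) and cDC precursors (1118 CPM) beside those of T cells (3162 CPM), and 18.4% had a high doublet score. NK cells (3262 barcodes) held 307 ± 10.4 CPM. *Ifng* stood at 191, 190 and 255 CPM in NK cells and at 231, 168 and 167 CPM in T cells. Plasmacytoid dendritic cells (352 barcodes) held 247 ± 32.8 CPM, mostly immunity-related GTPases (196 CPM beside 51.5 CPM). Of all 353 barcodes of that cluster, 15.9% had a high doublet score. Activated dendritic cells outside the deposited cDC1s (202 barcodes) held 157 ± 43.3 CPM, mostly guanylate-binding proteins (87.0, 151 and 70.9 CPM, beside 43.5, 55.4 and 62.0 CPM). They also carried markers of monocytes (2741 CPM), cDC1s (829 CPM) and cDC2s (698 CPM) beside those of activated dendritic cells (4880 CPM). NK cell markers stood at 11.1, 419 and 100 CPM. Of all 425 barcodes of that cluster, 10.1% had a high doublet score. The part of these in the values was not tested. The cDC2 cluster (3653 barcodes) held 58.7 ± 3.71 CPM, barcodes led by *Retnla* (1842), which met more markers of monocytes than of cDC2s and are given no name, held 184 ± 4.23 CPM, and macrophages led by *Apoe* and *C1qa* (2967 barcodes) held 106 ± 17.9 CPM.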
